A study of Homo sapiens with 24 samples.

Results

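The genes described here are 43 factors that build ribosomes, taken by symbol from a table of 55773 gene names measured by RNA-seq in U937 cells, a human myelomonocytic line grown from a histiocytic lymphoma. The rule takes them by name and uses no measured value, but they were listed with earlier results of these data known. All 43 were among the 20147 genes that passed the filter on low counts and were tested. The study disrupted the complex of SUV39H1, G9a and GLP, which are the histone H3 lysine 9 methyltransferases encoded by SUV39H1, EHMT2 and EHMT1. There were 8 groups of 3 libraries. For the inhibitor arm, cells received UNC0638, a compound that blocks the catalytic site of G9a and GLP, at 2 µM or 4 µM and were harvested after 3 days, and a mock group received DMSO. For the knockdown arm, lentivirus delivered 1 of 2 hairpins against G9a (numbers 2 and 3) or 1 of 2 hairpins against SUV39H1 (numbers 2 and 4), with 3 days of puromycin selection, and another group carried a scrambled hairpin. When the DMSO cells were harvested, whether the scrambled cells were selected, whether any group is a single clone and whether the 3 libraries of a group came from separate cultures is not stated in the labels. The p-values below therefore measure only the spread between these libraries.

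Ribosomes are assembled in the nucleolus. RNA polymerase I transcribes a long precursor RNA there, small nucleolar ribonucleoproteins (snoRNPs) guide its chemical modification, box C/D particles for ribose methylation and H/ACA particles for pseudouridine, and separate sets of assembly factors cut and fold the small and the large subunit. Growing and dividing cells depend on this output, and many of these genes are known targets of the transcription factor MYC, which binds DNA with its partner MAX at the E-box CACGTG. The 43 genes were ordered by role into 7 for RNA polymerase I transcription, 5 for box C/D snoRNPs, 4 for H/ACA snoRNPs, 4 abundant nucleolar proteins, 11 for the small subunit and 12 for the large subunit.

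The 250 bases before the start sites of 35 of the 43 genes could be read from RefSeq (GRCh38.p14). CACGTG, which reads the same on both strands, lay in 4 of these 35 genes (11.4%), against 7.73% of 27305 genes with such a window. The variant CACGCG, read on both strands as CACGCG or CGCGTG, lay in 10 of the 35 (28.6%), against 11.5% of all genes. The motifs differ by 1 letter and cannot match the same 6 letters. The 4 genes with CACGTG are shown because DDX21, EBNA1BP2 and NOP10 recur among the results below and UTP20 was among the members that differed most between the controls. Each line is 30 bases, 5′ to 3′ on the strand of the gene, with the motif in capitals. The DDX21 site is chr10:68956604-68956633 on the plus strand, the EBNA1BP2 site chr1:43172790-43172819 on the minus strand, the NOP10 sites chr15:34343289-34343318 and chr15:34343137-34343166 on the minus strand, and the UTP20 site chr12:101280075-101280104 on the plus strand. A match describes the letters in the window and does not show binding.
DDX21: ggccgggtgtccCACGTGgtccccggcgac
EBNA1BP2: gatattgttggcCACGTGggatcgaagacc
NOP10, farther from the start: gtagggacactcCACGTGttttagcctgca
NOP10, nearer to the start: caggaaggaaattgacgaaCACGTGacgcg
UTP20: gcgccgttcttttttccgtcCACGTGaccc

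Library totals ran from 31545854 to 53803704 counts. The targeted genes were lower: EHMT2 changed by -0.97 ± 0.05 (log2, ± SE) with the G9a hairpins and SUV39H1 by -1.55 ± 0.05 with the SUV39H1 hairpins, both against scrambled. In the SUV39H1 cells EHMT1 (-0.56 ± 0.04) and EHMT2 (-0.29 ± 0.06) were lower as well. Myelomonocytic markers were present in every library, with SPI1 at 121 to 162 CPM (counts scaled to the size of the library) and CD33 at 86.1 to 114 CPM, but MPO was at most 1.88 CPM. CD3E, HBB, EPCAM, KRT19 and DCN stayed at or below 0.0505 CPM, COL1A1 reached 0.795 and CD79A reached 25.9 CPM. In bulk RNA, fewer cells of a kind and less RNA per cell cannot be told apart. CPM here uses library sizes scaled by the trimmed mean of M-values (TMM), so that a level is a share of the library and not an amount per cell.

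Together the 43 genes took 0.828% ± 0.00986 of all counts in DMSO cells (SD, n = 3), 0.873% ± 0.00396 at 2 µM UNC0638 and 0.892% ± 0.00861 at 4 µM. The share was 1.02% ± 0.0106 with the scrambled hairpin, 0.829% ± 0.0116 and 0.802% ± 0.00356 with G9a hairpins 2 and 3, and 0.532% ± 0.00231 and 0.648% ± 0.00472 with SUV39H1 hairpins 2 and 4. The scrambled cells thus had the highest share and the SUV39H1 cells the lowest, while the G9a cells lay near DMSO in this summed share. Per length, the most abundant was NPM1, the nucleolar chaperone nucleophosmin, at 358 ± 21.5 RPKM (CPM per kilobase of the deposited gene length) in scrambled cells and 273 ± 20.1 in DMSO cells. It was followed by nucleolin (NCL) at 243 ± 5.66 and 185 ± 3.18 RPKM. Among the 43 genes the median coefficient of variation over 3 libraries was 7.36% in DMSO and 2.32% to 3.86% in the other 7 groups. DMSO was the noisiest group for these genes, with RRP12 at 13.7%.

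**Figure D1:**
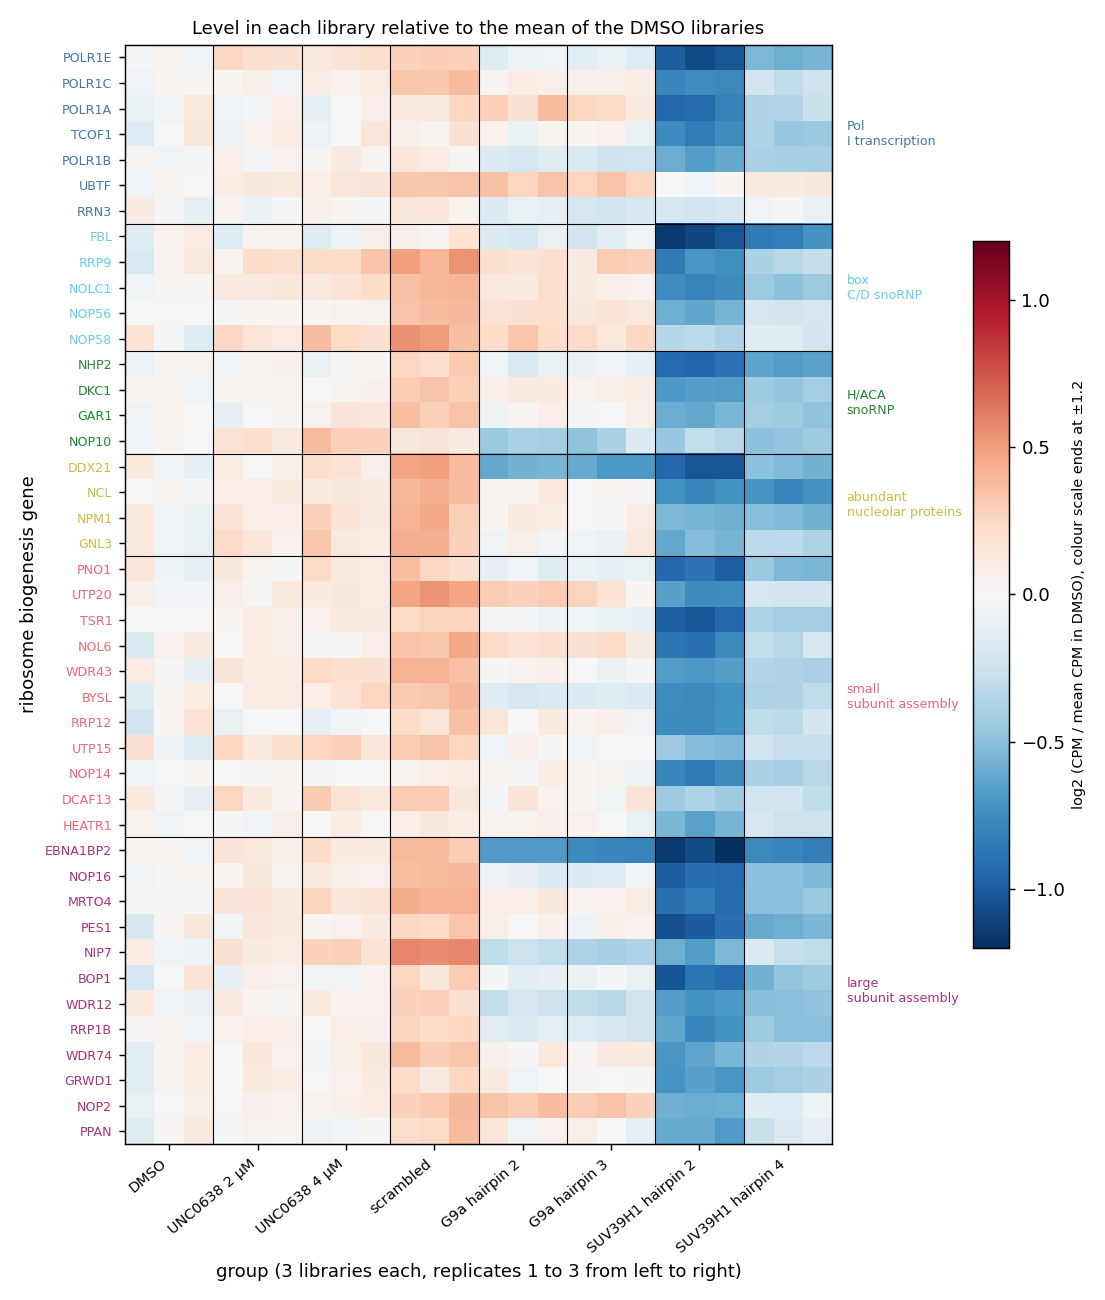
Heat map of log2(CPM / mean DMSO CPM) for the 43 genes (rows, by role) in all 24 libraries (columns, by group). The scrambled libraries are the warmest block, the 6 SUV39H1 libraries the coldest, and the G9a libraries hold genes below DMSO (EBNA1BP2, DDX21 and NIP7 among them) and genes above it (NOP2, UBTF, POLR1A and UTP20 among them).

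The controls were compared first, because each arm has its own. Of the 43 genes, 36 were higher with the scrambled hairpin than with DMSO and 0 were lower (edgeR quasi-likelihood test, Benjamini-Hochberg adjusted p under 0.05 over all genes), with a median log2 difference of 0.31 and a range of 0.07 to 0.57. Of all genes tested, 14.9% were higher and the median was -0.01, and of the 6060 genes with at least the mean CPM of the lowest member (UTP15), 25.9% were higher. DESeq2 also called 0 lower, and 0 were lower at an unadjusted p under 0.05. All 12 large subunit factors and all 4 abundant nucleolar proteins were higher, but 4 of 7 RNA polymerase I factors. In 36 genes every scrambled library was above every DMSO library, against 17.5% of all genes tested.

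NIP7, a large subunit factor needed for accurate precursor processing (hg19 chromosome 16, 69373333 to 69377014, plus strand), differed most. It stood at 70.4, 63.8 and 63.0 CPM in the DMSO libraries and 98.5, 97.4 and 97.7 CPM in the scrambled libraries. The groups did not overlap, and the difference was 0.57 ± 0.05 (adjusted p = 3.96e-10). UTP20, a scaffold of the small subunit precursor, stood at 84.3, 78.2 and 78.2 CPM in DMSO and 112, 116 and 111 CPM in scrambled cells, a difference of 0.49 ± 0.05 (edgeR adjusted p = 7.85e-09). NOP56, a core protein of box C/D particles, stood at 415, 417 and 418 CPM in DMSO and 529.5, 539 and 546 CPM in scrambled cells (0.37 ± 0.03, edgeR adjusted p = 4.02e-10). Again no library of one control reached the other. Differences of 0.40 ± 0.03 for NCL and 0.42 ± 0.04 for MRTO4 complete the 5 smallest p-values. The 7 members not called were FBL, NOP14, NOP10, POLR1B, RRN3, TCOF1 and HEATR1, at 0.07 to 0.14. POLR1A, the largest RNA polymerase I subunit, was called by a narrow margin (0.16 ± 0.06, adjusted p = 0.0485) and lost the call when any 1 library of either control was left out, except DMSO replicate 3. Effects of the vector, of any selection and of DMSO itself cannot be told apart here.

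With the SUV39H1 hairpins, all 43 genes were lower than with the scrambled hairpin, with a median of -0.86 and a range of -1.32 to -0.23 (mean of both hairpins; its SE leaves out the difference between hairpins). Of all genes tested 32.7% were lower, with a median of 0.03, and of the 6060 genes of comparable level 50.9% were lower, with a median of -0.11. In all 43 genes, all 6 SUV39H1 libraries were below all 3 scrambled libraries, which held for 25.8% of all genes tested. The medians by role were -1.04 for the abundant nucleolar proteins, -0.995 for box C/D, -0.90 for the large subunit, -0.89 for the small subunit, -0.85 for H/ACA and -0.70 for RNA polymerase I. Each hairpin alone also lowered all 43 genes, with medians of -0.99 for hairpin 2 and -0.71 for hairpin 4, against 32.6% and 29.2% of all genes.

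EBNA1BP2, a large subunit assembly factor (hg19 chromosome 1, 43629846 to 43736607, minus strand), fell most. It stood at 233, 233 and 220.3 CPM in scrambled cells, at 80.6, 84.9 and 78.2 CPM with SUV39H1 hairpin 2 and at 104, 103 and 100.4 CPM with hairpin 4. Hairpin 2 left 35.5% of the scrambled level and hairpin 4 left 44.9%, and the mean change was -1.32 ± 0.03 (edgeR adjusted p = 1.13e-21). NCL, which binds the precursor RNA and is among the main proteins of the nucleolus (hg19 chromosome 2, 232318242 to 232348352, minus strand), stood at 1676, 1730.4 and 1654 CPM in scrambled cells. Its level was 772, 745 and 780.1 CPM with hairpin 2 and 783, 747 and 778 CPM with hairpin 4, a change of -1.14 ± 0.03 (edgeR adjusted p = 6.8e-22). The 2 hairpins thus gave NCL overlapping levels.

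MRTO4, the nuclear stand-in for a stalk protein of the large subunit (hg19 chromosome 1, 19578033 to 19586622, plus strand), stood at 193, 187 and 189 CPM in scrambled cells. It stood at 76.0, 79.1 and 74.5 CPM with hairpin 2 and at 100.1, 101 and 104 CPM with hairpin 4 (-1.10 ± 0.03, edgeR adjusted p = 1.05e-20). Here the hairpins did not overlap, and hairpin 2 was lower. NOLC1, a nucleolar chaperone of snoRNPs, changed by -0.995 ± 0.031, TSR1, which matures the small subunit, by -0.94 ± 0.03, and the polymerase subunit POLR1E by -1.08 ± 0.03. At the other end stood 3 genes. RRN3, the factor that brings RNA polymerase I to its promoter, changed by -0.23 ± 0.04, UBTF, which binds the ribosomal DNA promoter, by -0.27 ± 0.03, and HEATR1 by -0.51 ± 0.03. For hairpin 4 alone, RRN3 lost its call without TMM factors and without either scrambled replicate 2 or replicate 3 of that hairpin.

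The scrambled control sits above DMSO for most of these genes, so the SUV39H1 cells were also set against DMSO. That comparison crosses the arms and holds the difference between the controls. Still 42 of the 43 genes were lower, against 30.8% of all genes and 49.1% of the genes of comparable level, with a median of -0.55. In 37 genes the groups did not overlap, against 21.6% of all genes tested. Hairpin 2 lowered 42 genes against DMSO (31.1% of all genes) and hairpin 4 lowered 41 (26.6%), with medians of -0.71 and -0.40. UBTF was the exception for the mean of both hairpins: it stood at 139, 147 and 144 CPM in DMSO, at 144, 141 and 145 CPM with hairpin 2 and at 155, 155 and 158 CPM with hairpin 4, a difference of 0.06 ± 0.03 (edgeR adjusted p = 0.0998). With hairpin 4 every UBTF library lay above every DMSO library, with a mean at 108.8% of DMSO, and RRN3 stood at 97.5% of DMSO. For the mean of both hairpins, EBNA1BP2 differed from DMSO by -0.97 ± 0.03, NCL by -0.74 ± 0.03 and NIP7 by -0.43 ± 0.04.

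The 2 SUV39H1 hairpins differed in size. Hairpin 2 was lower than hairpin 4 in 39 of the 43 genes and higher in 0 (0 also by DESeq2 and at an unadjusted p under 0.05), with a median difference of -0.34. Of all genes tested 22.0% were lower with hairpin 2, and 34.1% of the genes of comparable level. TSR1 stood at 65.6, 64.1 and 67.6 CPM with hairpin 2 and 101, 97.0 and 97.9 CPM with hairpin 4, which do not overlap (-0.58 ± 0.03, edgeR adjusted p = 2.16e-13). POLR1C, a subunit shared by RNA polymerases I and III, differed by -0.51 ± 0.04, the methyltransferase NOP2 by -0.47 ± 0.04, the small subunit factor NOP14 by -0.43 ± 0.04 and NOP56 by -0.37 ± 0.03. NCL (-0.01 ± 0.03), NPM1 (-0.02 ± 0.05), NOP10 (0.10 ± 0.06) and DCAF13 (-0.16 ± 0.07) were not called. By role, all RNA polymerase I and box C/D factors were called, 22 of the 23 subunit factors and all H/ACA proteins but NOP10. Among the 4 abundant nucleolar proteins 2 were called. The target itself, SUV39H1, was at 18.6 ± 0.403 CPM with hairpin 2 and 21.1 ± 1.84 CPM with hairpin 4 (-0.18 ± 0.07, edgeR adjusted p = 0.0382). Its part in the difference was not tested.

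With the G9a hairpins 37 of the 43 genes were lower than with the scrambled hairpin and 0 were higher (0 also by DESeq2 and at an unadjusted p under 0.05), with a median of -0.27 and a range of -1.09 to 0.08. Of all genes tested 24.9% were lower, with a median of 0.01, and of the genes of comparable level 38.9%, with a median of -0.04. In 37 genes the 6 G9a libraries were all below the 3 scrambled ones, against 21.6% of all genes tested. Hairpin 2 alone lowered 36 genes (22.3% of all genes tested) and hairpin 3 alone 38 (22.1%). All 9 snoRNP proteins and all 4 abundant nucleolar proteins were lower, as were 11 of 12 large subunit factors, 9 of 11 small subunit factors and 4 of 7 RNA polymerase I factors. The 6 not called were NOP2, NOP14, POLR1A, UBTF, TCOF1 and HEATR1, at -0.09 to 0.08. RRP12 lost its call without scrambled replicate 3 and DCAF13 without scrambled replicate 1.

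EBNA1BP2, DDX21 and NIP7 stood apart in size. EBNA1BP2 stood at 111, 111 and 111 CPM with G9a hairpin 2 and at 105, 104 and 102 CPM with hairpin 3, against 220.3 to 233 CPM in scrambled cells. That is 48.7% and 45.4% of the scrambled level (-1.09 ± 0.03, edgeR adjusted p = 2.91e-19). DDX21, an RNA helicase of the nucleolus that acts in precursor transcription and processing (hg19 chromosome 10, 70715884 to 70744829, plus strand), stood at 668, 681 and 624 CPM in scrambled cells, 316, 325 and 328 CPM with hairpin 2 and 317, 299 and 299 CPM with hairpin 3. No G9a library reached the level of DMSO, at 524, 473 and 451 CPM, and the change against scrambled was -1.07 ± 0.04 (edgeR adjusted p = 2.55e-17). NIP7 stood at 53.1, 54.9 and 53.4 CPM with hairpin 2 and 50.9, 49.9 and 50.9 CPM with hairpin 3, below both controls (-0.91 ± 0.04 against scrambled, edgeR adjusted p = 3.65e-16). The next were WDR12 (-0.52 ± 0.04), BYSL (-0.51 ± 0.04), NOP10 (-0.51 ± 0.05) and NOP16 (-0.49 ± 0.03). NIP7 overlaps COG8, which changed by -0.15 ± 0.04 with the G9a hairpins, and the library kit does not mark strand, so reads in their overlap cannot be assigned to either. Other overlapping names changed more. SLC25A32, which overlaps DCAF13, changed by -1.03 ± 0.07 with G9a. ARL10, which overlaps NOP16, changed by -0.59 ± 0.06 with G9a and -1.199 ± 0.063 with SUV39H1. Some rose instead: CARF, which overlaps WDR12, by 0.50 ± 0.10 with G9a and 1.41 ± 0.09 with SUV39H1. ANKRA2, which overlaps UTP15, rose by 0.97 ± 0.06 with SUV39H1. POLR1C overlaps RP3-337H4.9, XPO5 and YIPF3, which changed with SUV39H1 by -0.85 ± 0.05, -0.70 ± 0.03 and 0.12 ± 0.04. TSR1 overlaps SRR (-0.52 ± 0.04) and SGSM2 (0.15 ± 0.06), and MRTO4 overlaps EMC1 (-0.13 ± 0.05, but 0.34 ± 0.05 with G9a).

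**Figure D2:**
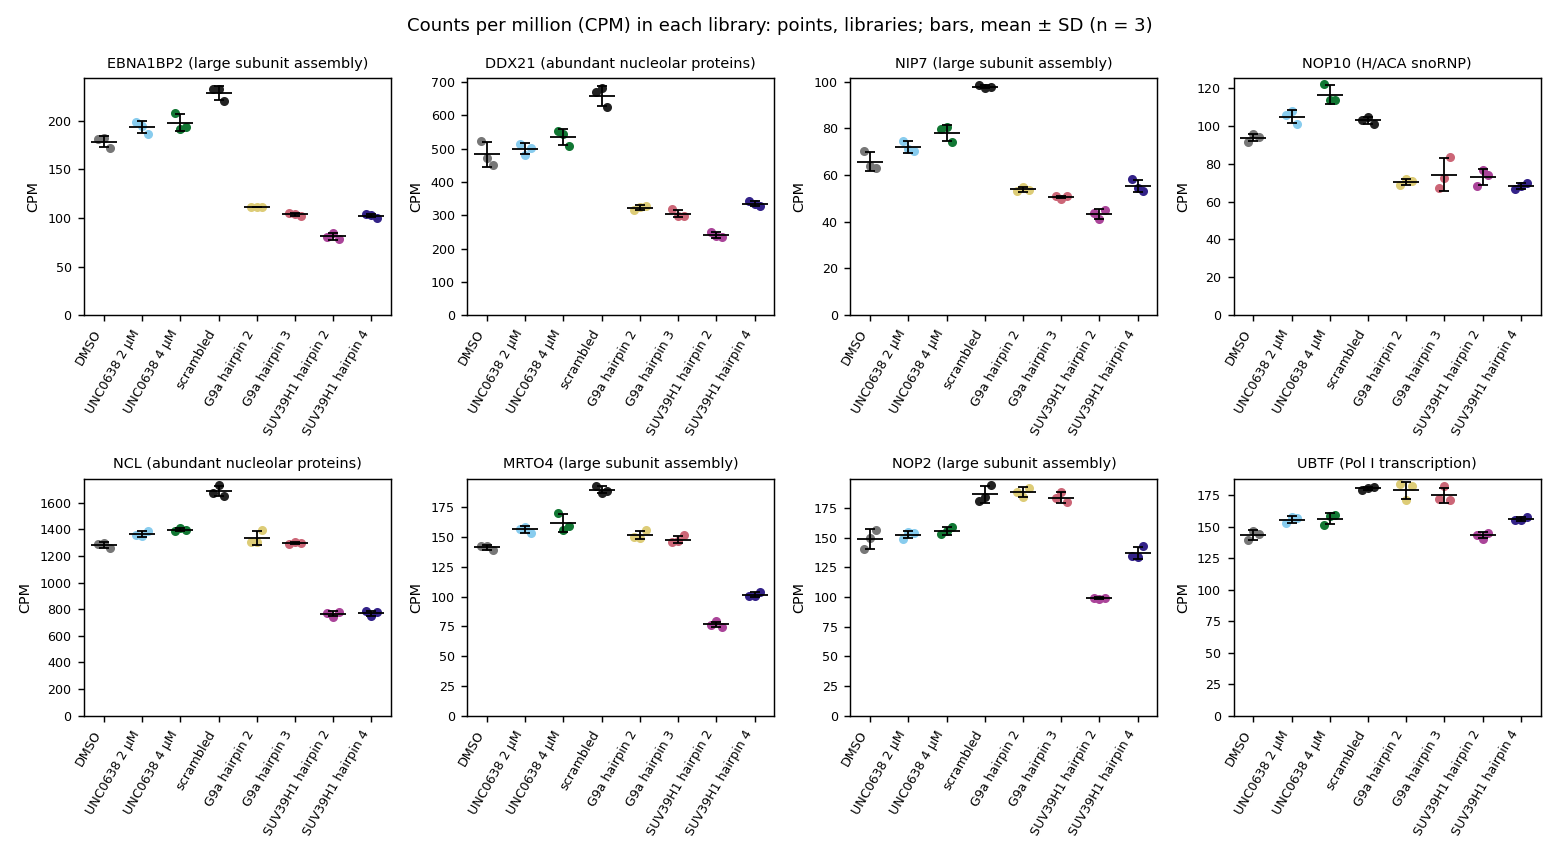
CPM in each library (points) with the group mean ± SD (n = 3) for EBNA1BP2, DDX21, NIP7, NOP10, NCL, MRTO4, NOP2 and UBTF in the 8 groups, on linear axes. EBNA1BP2, DDX21 and NIP7 lie below both controls in all 12 hairpin libraries, whereas NCL with the G9a hairpins lies near DMSO and NOP2 and UBTF lie near scrambled.

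No member was called between G9a hairpins 2 and 3 (0 by edgeR and by DESeq2). At an unadjusted p under 0.05, 2 were higher with hairpin 2, UTP20 and EBNA1BP2, but all genes were not counted at that threshold. At an adjusted p under 0.05, only 0.00993% of all genes were called between these hairpins. The G9a and SUV39H1 means share the scrambled control but can be compared directly. The G9a cells were higher in 41 of the 43 genes, with a median of 0.57, against 32.9% of all genes tested. NOP10 (0.04 ± 0.04) and RRN3 (-0.04 ± 0.04) were not called. The direct difference was small for NIP7 (0.09 ± 0.03, edgeR adjusted p = 0.0192), DDX21 (0.14 ± 0.03) and EBNA1BP2 (0.24 ± 0.03), the same genes that fell most with the G9a hairpins. In these 3 genes and in NOP10 and RRN3 the G9a and SUV39H1 libraries overlapped. For DDX21 and NIP7 the mean with SUV39H1 hairpin 4 (334 ± 8.16 and 55.2 ± 2.66 CPM) was above the means with both G9a hairpins (323 ± 6.29 and 305 ± 10.7 CPM for DDX21, 53.8 ± 0.996 and 50.5 ± 0.552 CPM for NIP7), and only hairpin 2 was below them.

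Against DMSO the picture with the G9a hairpins was mixed. There 13 of the 43 genes were lower and 11 were higher, with a median of 0.02, against 24.1% lower and 22.5% higher over all genes tested. Both shares are near the background. The 13 genes lower against DMSO were FBL, DDX21, NOP16, NHP2, NOP10, WDR12, RRP1B, POLR1B, POLR1E, RRN3, NIP7, BYSL and EBNA1BP2, and all 13 were also among the 37 lower against scrambled. Their values against DMSO were led by EBNA1BP2 (-0.73 ± 0.03, edgeR adjusted p = 1.16e-15), DDX21 (-0.62 ± 0.04), NOP10 (-0.37 ± 0.05) and NIP7 (-0.33 ± 0.04). These comparisons use the same G9a libraries.

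In 8 genes the direction depended on the control: NOP56, NOP58, NOLC1, NOL6, DKC1, RRP9, UTP20 and MRTO4 were lower against scrambled and higher against DMSO, which is 8 of the 37 and 8 of the 11. Both calls fell on 1.02% of all genes tested. NOP56 shows this with little spread: it stood at 470.3, 474 and 478 CPM with G9a hairpin 2 and at 457, 468 and 455 CPM with hairpin 3. All 6 libraries lay between DMSO, at most 418 CPM, and scrambled, at least 529.5 CPM. The difference was -0.21 ± 0.03 from scrambled (edgeR adjusted p = 1.93e-07) and 0.16 ± 0.03 from DMSO (edgeR adjusted p = 8.44e-06). UTP20 differed by -0.27 ± 0.04 from scrambled and by 0.22 ± 0.04 from DMSO. NOP2, POLR1A and UBTF were higher against DMSO (0.32 ± 0.04, 0.24 ± 0.05 and 0.30 ± 0.03) and were not called against scrambled.

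**Figure D3:**
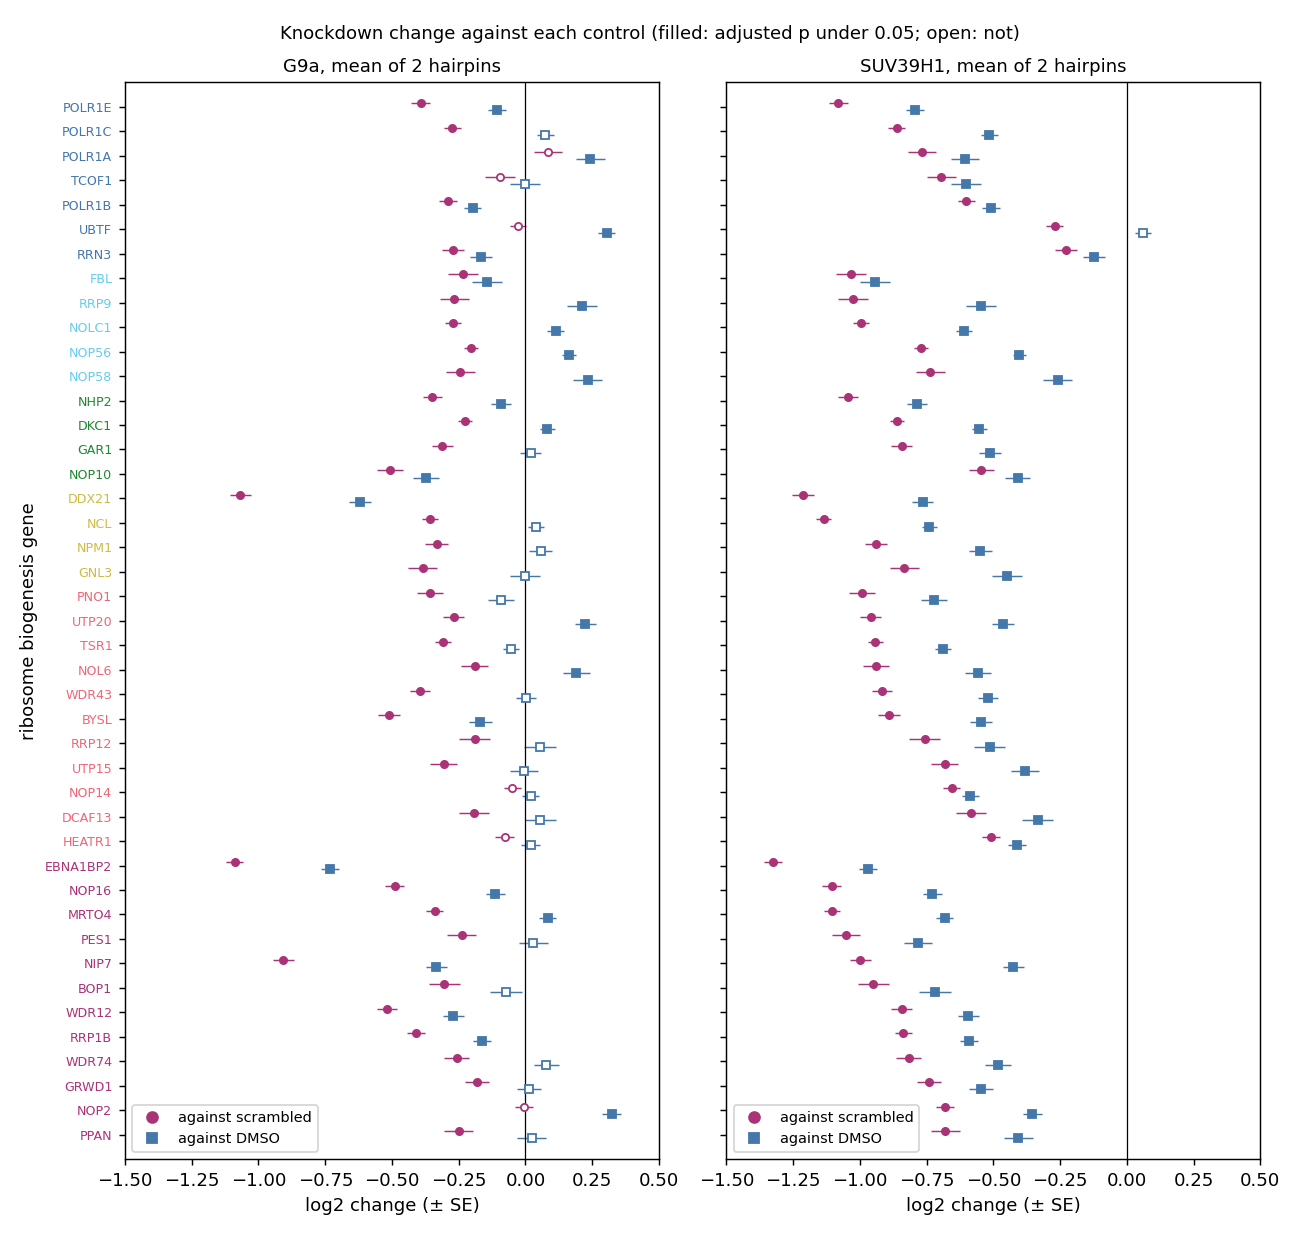
Log2 change ± SE of each of the 43 genes for the G9a mean and the SUV39H1 mean, against scrambled (circles) and against DMSO (squares); filled symbols passed the test. With SUV39H1 both symbols lie below 0 in 42 genes, whereas with G9a the squares lie on both sides of 0, from EBNA1BP2 at -0.73 to NOP2 at 0.32.

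At 4 µM UNC0638, 18 of the 43 genes were higher than with DMSO and 0 were lower (0 also by DESeq2 and at an unadjusted p under 0.05), with a median of 0.09 and a range of -0.05 to 0.32. Of all genes tested 10.2% were higher, with a median of -0.01, and of the genes of comparable level 13.4%. At 2 µM 4 genes were higher, POLR1E, MRTO4, UTP15 and UBTF, and 0 were lower by either tool or at an unadjusted p under 0.05. That is 9.30% of the members, against 3.83% of all genes tested. All 4 abundant nucleolar proteins were higher at 4 µM, as were 3 of 5 box C/D factors, 5 of 11 small subunit factors, 3 of 12 large subunit factors, 2 of 7 RNA polymerase I factors and 1 of 4 H/ACA proteins.

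NOP10, the smallest H/ACA protein (hg19 chromosome 15, 34633917 to 34635378, minus strand), differed most at 4 µM. It stood at 91.7, 95.5 and 94.0 CPM in DMSO, at 106, 108 and 101 CPM at 2 µM and at 122, 114 and 114 CPM at 4 µM. The 3 groups did not overlap, but only the 4 µM difference was called (0.32 ± 0.06, edgeR adjusted p = 0.000131). NIP7 stood at 79.8, 80.4 and 74.2 CPM at 4 µM, above its 3 DMSO libraries (0.25 ± 0.05, edgeR adjusted p = 0.000265). MRTO4 stood at 143, 143 and 139 CPM in DMSO, 157, 159 and 153 CPM at 2 µM and 170.2, 156 and 159 CPM at 4 µM (0.14 ± 0.04 and 0.19 ± 0.04). Here both doses lay above DMSO and overlapped each other. POLR1E stood at 48.0, 49.9 and 47.5 CPM in DMSO, 57.5, 55.5 and 54.9 CPM at 2 µM and 52.9, 54.3 and 55.9 CPM at 4 µM (0.21 ± 0.04 and 0.17 ± 0.04). WDR43 and NOLC1, a small subunit factor and the snoRNP chaperone, differed by 0.21 ± 0.04 and 0.17 ± 0.04 at 4 µM. DDX21 was called at 4 µM (0.15 ± 0.05, edgeR adjusted p = 0.0283) although its 553, 544 and 508 CPM overlapped the 451 to 524 CPM of DMSO.

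These inhibitor counts changed with the libraries that entered the fit. The part of the wider spread in DMSO was not tested. A fit of the compared libraries alone called 3 genes at 4 µM (NOP10, NIP7 and MRTO4) and 1 at 2 µM (POLR1E). Over all genes, that fit called 1093 higher at 4 µM and 447 at 2 µM, against 2052 and 771 in the main fit. The excess of members over all genes at either dose therefore rests on the fit of all 24 libraries. Without DMSO replicate 3 the 4 µM count was 11, and without 1 library the 2 µM count ran from 1 (without DMSO replicate 3 or 2 µM replicate 1) through 2 (without DMSO replicate 2 or 2 µM replicate 2 or 3) to 8 (without DMSO replicate 1). Between 4 µM and 2 µM 0 members were called by edgeR or DESeq2, with a median difference of 0.03. Of all genes tested, 1.84% were called between the doses at an adjusted p under 0.05. At an unadjusted p under 0.05, 6 members were higher, a threshold at which all genes were not counted. Set against scrambled across the arms, 32 genes were lower at 2 µM and 33 at 4 µM (14.7% and 16.3% of all genes), with medians of -0.24 and -0.21, and NOP10 was higher at 4 µM.

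The inhibitor and the G9a hairpins were then compared through the difference of their responses, (4 µM minus DMSO) minus (G9a mean minus scrambled), which uses each arm's own control. It was above 0 in 36 of the 43 genes and below 0 in 0 by the test (0 also by DESeq2 and at an unadjusted p under 0.05), with a median of 0.39. Of all genes tested 22.5% were called higher, and 35.1% of the genes of comparable level. The 17 genes that were higher at 4 µM and lower with the G9a hairpins make up 17 of the 18 higher genes, all but UBTF, and 17 of the 37 lower genes. The same pair of calls was made for 4.56% of all genes tested, which is 918 of the 2052 genes higher at 4 µM, and since 37 of the 43 members were lower with G9a, most members higher at 4 µM had to be among them. EBNA1BP2 had the widest difference, 1.24 ± 0.05 (edgeR adjusted p = 3.89e-16), made of 0.15 ± 0.04 at 4 µM and -1.09 ± 0.03 with the hairpins. DDX21 followed with 1.22 ± 0.06, NIP7 with 1.16 ± 0.06 and NOP10 with 0.82 ± 0.07. The 7 genes not called were FBL, NOP2, NOP14, RRP12, POLR1A, TCOF1 and HEATR1, at -0.09 to 0.19. The contrast also holds any response to DMSO or to the scrambled hairpin, which cannot be told apart from it, and protein levels and methylation were not measured in these libraries.

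**Figure D4:**
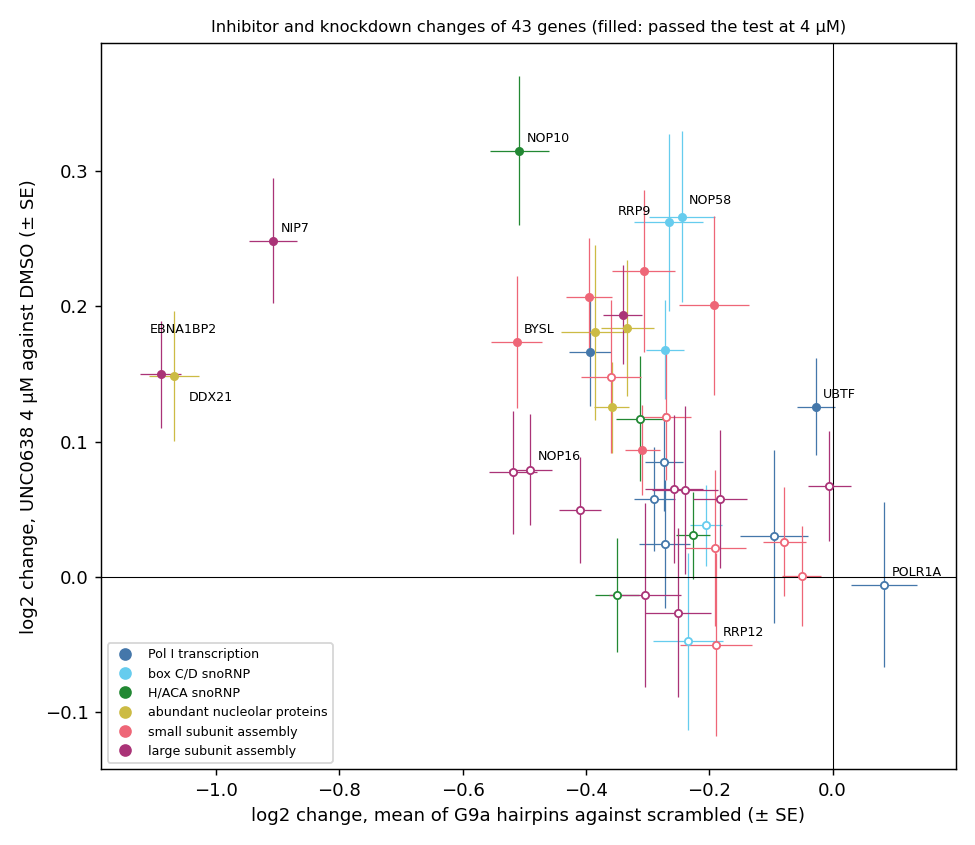
Log2 change ± SE at 4 µM UNC0638 against DMSO (vertical) and with the G9a hairpins against scrambled (horizontal) for the 43 genes; filled points passed the test at 4 µM. EBNA1BP2, DDX21 and NIP7 lie far to the left (-1.09, -1.07 and -0.91) at 0.15 to 0.25 on the vertical axis, and NOP10 is the highest point at 0.32.

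Other genes of the pathway were listed by function. Of 46 other small subunit factors, 45 were lower with the SUV39H1 hairpins (median -0.65), 41 with the G9a hairpins (median -0.23), 36 were higher in scrambled than in DMSO cells and 13 were higher at 4 µM. Of 51 other large subunit factors the counts were 48 (median -0.57), 40 (median -0.22, with 3 higher), 38 and 13. Of 12 snoRNP assembly factors 11 were lower with SUV39H1 and 10 with G9a, of 17 exosome genes 15 and 12, of 14 other RNA polymerase I factors 12 and 10, and of 21 RNA polymerase III genes 17 and 15. The shares lower with SUV39H1 and G9a lie above the 32.7% and 24.9% of all genes. Over all genes tested, 14.9% were higher in scrambled than in DMSO cells and 10.2% were higher at 4 µM. The 13 genes of ribosomal DNA silencing include the 3 enzymes of the complex. They split into 8 lower and 4 higher with SUV39H1 and 5 and 5 with G9a. The 10 genes of MYC, MAX and their partners split into 4 lower and 5 higher with SUV39H1 and 5 and 4 with G9a. Among all 20147 genes tested, 7077 were higher with SUV39H1 and 5038 with G9a.

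Among these other genes, NOB1, the nuclease that finishes the small subunit RNA, changed by -1.41 ± 0.04 with the SUV39H1 hairpins, from 79.0 ± 1.91 CPM in scrambled cells to 20.4 ± 1.12 CPM with hairpin 2 and 43.1 ± 1.49 CPM with hairpin 4. That change is beyond those of all 43 members. REXO4 changed by -0.85 ± 0.03 with G9a and -0.89 ± 0.03 with SUV39H1, and the acetyltransferase NAT10 by -0.56 ± 0.04 and -0.66 ± 0.04. UTP14A was higher at both doses of UNC0638 (0.21 ± 0.04 and 0.27 ± 0.04). CD3EAP, an RNA polymerase I subunit, changed by -1.14 ± 0.04 with SUV39H1. Among the RNA polymerase III genes, POLR3F changed by -0.49 ± 0.06 with G9a and GTF3A by -0.68 ± 0.03 with SUV39H1. Against most of that list, POLR3GL rose by 0.42 ± 0.05 with G9a and 0.61 ± 0.05 with SUV39H1. POLR3G changed by -0.40 ± 0.07 with G9a but was higher at 4 µM UNC0638 (0.35 ± 0.08, edgeR adjusted p = 0.00154).

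**Figure D5:**
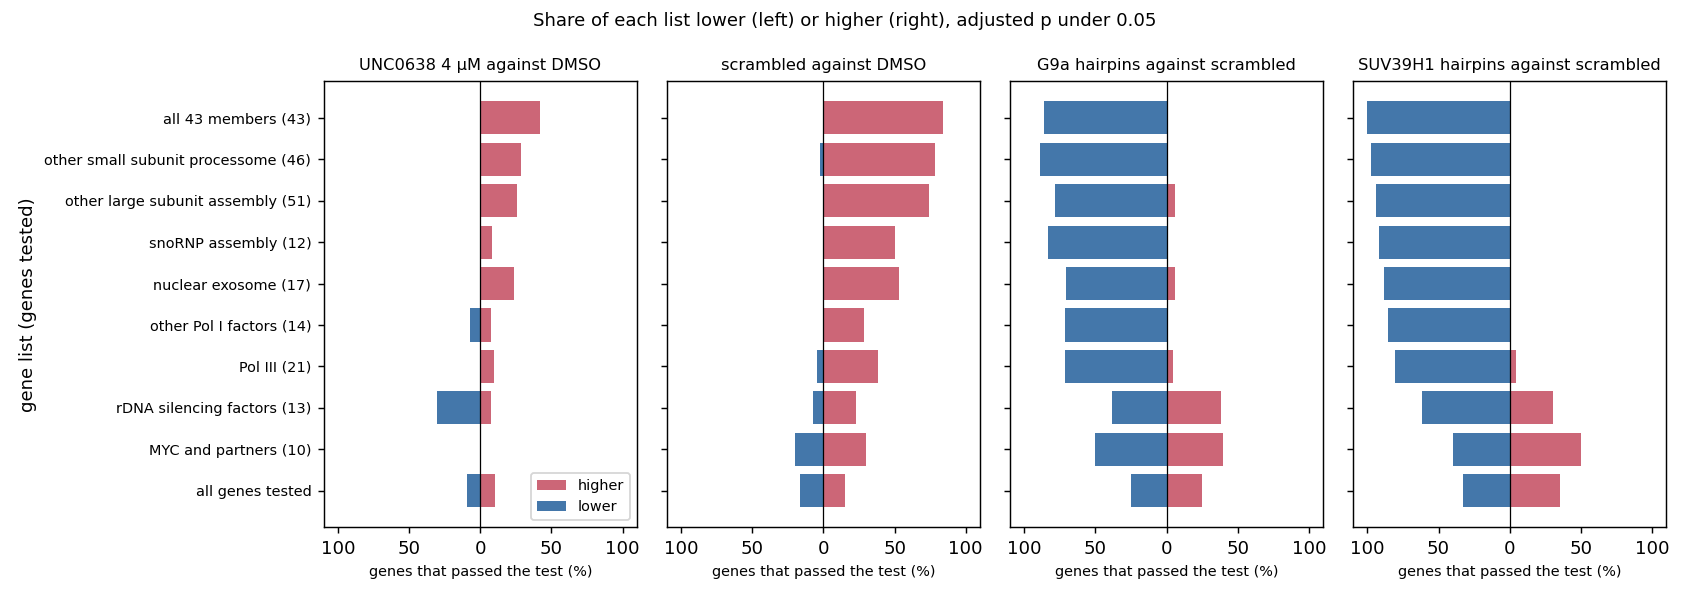
Percent of each gene list called higher (right) or lower (left) in 4 comparisons, with all genes tested for reference. The lists of ribosome assembly lie to the left in both knockdowns and to the right in scrambled against DMSO, and at 4 µM the 43 members have no bar on the left.

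MYC, whose targets include many of these genes, was measured in the same libraries. It stood at 216 ± 11.5 CPM in DMSO, 224 ± 7.82 at 2 µM, 218 ± 9.97 at 4 µM and 283 ± 9.88 in scrambled cells (SD, n = 3). With the hairpins it stood at 209.9 ± 4.26 and 209 ± 5.96 CPM for G9a and at 86.4 ± 1.75 and 142 ± 2.23 CPM for SUV39H1 hairpins 2 and 4. It was higher in scrambled than in DMSO cells (0.39 ± 0.04, edgeR adjusted p = 6.73e-08), lower with G9a (-0.43 ± 0.04) and with SUV39H1 (-1.36 ± 0.04), and lower with SUV39H1 hairpin 2 than hairpin 4 (-0.71 ± 0.04). UNC0638 gave 0.05 ± 0.04 and 0.01 ± 0.04, neither called. Like most of the 43 genes, MYC was highest in scrambled cells and lowest with SUV39H1 hairpin 2, and its part in their change was not tested. The 4 genes with CACGTG before the start changed with SUV39H1 by -1.32 (EBNA1BP2), -1.21 (DDX21), -0.96 (UTP20) and -0.54 (NOP10), which brackets the median of -0.86.

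Over the 8 groups, 40 of the 43 genes had their highest mean in scrambled cells and 41 their lowest with SUV39H1 hairpin 2. This order was not counted over all genes tested, so how particular it is to these genes is not known. The exceptions at the top were NOP2 and POLR1A, highest with G9a hairpin 2, and NOP10, highest at 4 µM. NOP2 stood at 189, 184 and 192 CPM with that hairpin and 181, 185 and 195 CPM in scrambled cells, so the neighbours overlap. At the bottom, RRN3 was lowest with G9a hairpin 3 at 59.1, 57.8 and 59.6 CPM, which overlaps the 59.5, 58.3 and 59.3 CPM of SUV39H1 hairpin 2. NOP10 was lowest with SUV39H1 hairpin 4 at 66.8, 68.0 and 69.9 CPM, which overlaps all 3 other hairpins, its G9a hairpin 3 libraries alone running from 67.0 to 83.7 CPM. RRN3 and NPM1 have close copies elsewhere in the genome and PPAN is contained in the read-through gene PPAN-P2RY11, so their counts depend on how shared reads were assigned.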

How the data were processed

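RNA-seq of 24 U937 libraries (8 groups of 3) was used as the gene counts deposited by the authors, with no normalization. Reads were aligned with STAR to hg19 and counted with featureCounts, per the submitters' processing notes; their settings: not given in the sources used here. Another deposited column holds a gene length (unit other), used for RPKM only. The deposited table of transposons and repeats was not used.

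Counts were tested in R 4.3.3 with edgeR 4.0.16 (limma 3.58.1): filterByExpr (minimum count 10, minimum total 15), TMM, 1 mean per group, glmQLFit and glmQLFTest over all 24 libraries, and Benjamini-Hochberg adjustment over 20147 genes at 0.05. Values after ± are SE for log2 changes and SD for levels. The biological coefficient of variation was 4.63%, and totals of 31545854 to 53803704 counts set the precision. The scripts were tested on simulated data.

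The members and gene lists were chosen with earlier results of these data known. Eligible for values in full were the 5 called members of smallest p and the member of largest change per main comparison. Also eligible were members called in opposite directions, and the 2 called genes of smallest p per pathway list. Only some of these are printed, and fewer with the value of every library. Alternatives were RLE scaling, no low-count filter, DESeq2 1.42.0, the compared libraries only, a replicate block and leaving out each library. Library sizes without TMM factors, and the alternatives of the comparisons across arms, were added after seeing the data. Sequences come from RefSeq (GRCh38.p14); coordinates of genes are those of the files (hg19).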

Additional observations from a re-analysis of the deposited data

Results flagged for a closer look

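The responses to 4 µM UNC0638 and to the G9a hairpins were each taken against their own control. They differed by the test of the difference itself in 36 of the 43 members, all higher with the inhibitor. The same call was made for 22.5% of all genes tested and 35.1% of the genes of comparable level. The difference in log2 change was 1.24 for EBNA1BP2, 1.22 for DDX21, 1.16 for NIP7, 0.82 for NOP10 and 0.53 for MRTO4, in each case higher with the inhibitor. The 2 hairpins against SUV39H1 differed in 39 members, with hairpin 2 lower. Hairpin 2 was also lower in 22.0% of all genes tested and 34.1% of the genes of comparable level. The difference was -0.58 for TSR1, -0.51 for POLR1C, -0.47 for NOP2, -0.43 for NOP14 and -0.37 for NOP56.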

How the results depend on the processing

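The counts of members called with the SUV39H1 hairpins (42 to 43 for the mean or either hairpin), with the mean of the G9a hairpins (36 to 38), between scrambled and DMSO, between the SUV39H1 hairpins and for the difference of responses (34 to 38) stayed within 1.5 times of the reported count in all settings run. Inhibitor counts did not. At 2 µM the 4 higher members became 1 with the compared libraries only, 7 with a replicate block, and 1 to 8 when 1 library was left out. At 4 µM the 18 higher members became 3 with the compared libraries only and 11 to 20 when 1 library was left out; the 0 lower members became 0 to 1. The cause was not tested. With a replicate block the 4 µM count was 21. Over all genes, the compared libraries only gave 1093 higher at 4 µM and 447 at 2 µM, against 2052 and 771 in the main fit. Of 84 correlations between same-numbered libraries 16 were above 0.1, with a median of 0.04 and a highest value of 0.23, against a median of -0.02 and a highest value of 0.15 between different numbers. Of 24 libraries, 15 matched their own number best, a hint of pairing from the data. Since not every pair was above 0.1 and the labels tie the numbers to nothing, the libraries were not treated as paired. Without TMM factors the median of all genes with SUV39H1 moved from 0.03 to 0.13, the members' median from -0.86 to -0.75, and the share of calls that were higher from 51.8% to 63.5%. Each group had 3 libraries of 1 cell line, and the effect of depth was not tested.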
